A study of Mus musculus with 6 samples.

Results

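Long noncoding RNAs (lncRNAs) expressed in mouse fat were compared between cachectic and control mice. The deposited count table lists 54532 genes, and 9165 of them carry the biotype lincRNA, processed_transcript or antisense. Members were the rows of these biotypes with at least 600 raw counts summed over all 6 samples, without Meg3, Rian, Mirg, H19, Kcnq1ot1, Airn and Peg13. The rule kept 164 lncRNAs, of which 67 were lincRNAs, 51 processed transcripts and 46 antisense transcripts. The counts of both groups together set the floor, so the lncRNAs were selected on their measured level and not on a difference between groups. A lncRNA with few counts in one group could enter through the other, and 5 of the 164 had fewer than 100 counts in one group. Rows next to the floor were 1700052K11Rik with 599 counts and Hoxd3os1 with 592, which were left out, and 4930579G18Rik and 4933431E20Rik with 605 each, which were kept. All 164 passed the filter on low counts and were tested.

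The samples were epididymal white adipose tissue (eWAT), a visceral fat depot, of male C57BL/6 mice 6 to 10 weeks old. Cachectic mice had received LLC cells (Lewis lung carcinoma, an established tumor line of this strain) under the skin, and fat was taken on day 21. The labels name 2 groups of 3 samples, eWAT Control and eWAT Cachexia, and the comparison asked which transcripts differed in wasting fat. A tumor and a marked loss of body weight defined the cachexia group, so effects of the tumor and of wasting cannot be told apart. Whole fat pads were used, and in such bulk tissue fewer cells of a type and less RNA per cell cannot be told apart. Each numbered label was taken as a separate mouse, and if that does not hold, the p-values measure only the spread between these samples.

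An lncRNA is a long transcript that is not known to be translated into a large protein. Some act as RNA in the nucleus, such as the scaffolds of nuclear bodies, and others are mainly carriers of small RNAs. A small nucleolar RNA (snoRNA), which guides chemical modification of ribosomal RNA, is usually cut out of an intron of such a host, and microRNAs, which repress target mRNAs through a short seed, can be cut out of a host in the same way. Many other lncRNAs start beside a coding gene or lie across it on the other strand, and for most of these no function is known.

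The total count per sample lay between 14928766 and 18855546, and expression is given as CPM, the count scaled by the TMM-normalized library size. The 164 lncRNAs took between 0.545% and 0.581% of the counts in 5 libraries and 0.898% in cachexia replicate 3. That library had the highest CPM of the 6 for 78 of the 164 lncRNAs, a share of 47.6% against 23.7% of all genes tested. Adipocyte markers were abundant in every library, with a summed CPM of 26208 to 33379 in control mice and 28535 to 43656 in cachectic mice, and 2 of 10 rose and 1 fell. The summed CPM of neutrophil markers was 32.5 to 50.0 in control mice and 265 to 831 in cachectic mice, with the highest value in cachexia replicate 3, and 10 of the 11 tested rose. Erythroid markers rose in 6 of 6 cases, from 252 to 451 summed CPM in control mice to 1333 to 2855 in cachectic mice. Endothelial markers rose in 3 of 8 cases (1489 to 1552 against 2101 to 3089 summed CPM), progenitor markers fell in 3 of 8 and rose in 1, and 1 of 6 B cell markers fell (452 to 594 summed CPM in control mice and at most 158 in cachectic mice). Of 10 macrophage markers 2 rose and 1 fell, 1 of 7 T and NK cell markers fell, and no mesothelial or skeletal muscle marker was called. Only 3 of the 6 skeletal muscle markers were tested. Their summed CPM was 23.4 to 40.5 in control mice, 7.29 and 6.76 in cachexia replicates 1 and 2, and 58.5 in cachexia replicate 3. None of the 6 markers of epididymal epithelium passed the filter on low counts, so their levels were not compared. Which part these other cells had in the lncRNA differences was not tested.

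Of the 164 lncRNAs, 45 were significantly higher and 16 significantly lower in cachectic than in control eWAT (edgeR's quasi-likelihood test, Benjamini-Hochberg adjusted p under 0.05). This was 37.2% of the lncRNAs, beside 17.6% of all 16003 genes tested and 19.7% of the 11249 tested genes that also had at least 600 counts (19.2% of the protein-coding ones). The excess lay on the higher side. Here 27.4% of the lncRNAs rose and 9.76% fell, beside 10.5% and 9.24% of genes at the same count floor, 9.96% and 9.29% of the protein-coding genes among them, and 9% and 8.63% of all genes tested. The median log2 fold change was 0.27 over the lncRNAs and -0.0031 over all genes tested. Of the 61 called, 33 lncRNAs were higher and 12 lower by at least 1 on the log2 scale. This was 27.4% of the lncRNAs, beside 10.1% of all genes tested. At least 4-fold differences were seen for 13 higher and 6 lower lncRNAs, a share that was not counted over all genes. In all 61 the control and cachexia values did not overlap, a share that was not counted among all genes called. Non-overlapping groups occurred in 88 lncRNAs (53.7%), beside 40.5% of all genes tested and 43.2% of those at the same floor. Without cachexia replicate 3, 30 lncRNAs were higher and 14 lower (26.8% called, beside 14.2% of all genes tested). Without control replicate 3 the counts were 18 and 9 (16.5%, beside 5.02% of all genes tested). No call changed direction when any library was left out. Among the 45 higher lncRNAs, cachexia replicate 3 had the highest value in 37 (82.2%), a share that was 49.0% among all genes called higher.

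**Figure D1:**
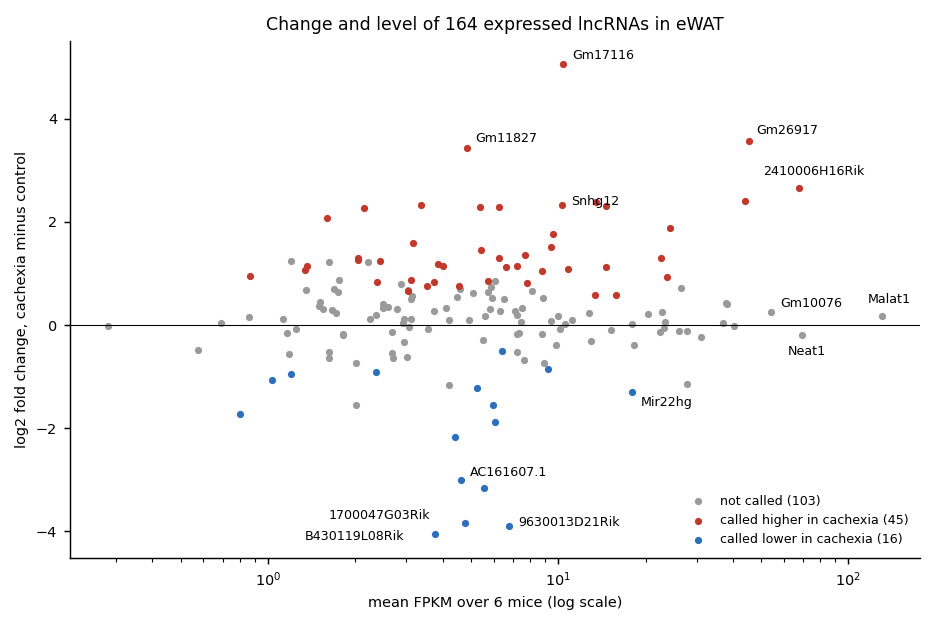
Log2 fold change (cachexia minus control, vertical axis) of the 164 lncRNAs against their mean FPKM over 6 mice (horizontal log axis), 1 point per lncRNA. Red points mark the 45 called higher, blue the 16 called lower and grey the 103 not called, and the most abundant lncRNAs, Malat1 and Neat1, sit near 0.

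Per length, as FPKM averaged over the 6 mice, the lncRNAs spanned 0.282 to 130, with a median of 5.33. Malat1 had the highest level (130 FPKM), followed by Neat1 (69.2), 2410006H16Rik (67.7), Gm10076 (54.2) and Gm26917 (45.3). In the plot of change against level, the 13 lncRNAs at least 4-fold higher spread from 1.60 to 67.7 mean FPKM, and the 6 at least 4-fold lower lay between 3.77 and 6.79.

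The clearest group was that of the snoRNA hosts. A host was a lncRNA with an annotated snoRNA, or the related class scaRNA, inside its span on the same strand. By this rule 18 of the 164 qualified, and Snhg20 and 2900076A07Rik did so only through a scaRNA row. Of these, 11 rose, none fell and 7 were not called, with a median log2 fold change of 0.88. The share called was 61.1%, beside 34.2% of the other 146 lncRNAs, of which 34 rose and 16 fell. Among all genes at the same floor it was 19.7%. Together the 18 hosts had a summed CPM of 473, 459 and 461 in control mice and of 624, 607 and 881 in cachectic mice. All cachectic mice lay above all control mice, and cachexia replicate 3 was the highest.

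The strongest rise among hosts was in 2410006H16Rik (ENSMUSG00000086841), which lies at chr11:62602877-62604807 on the plus strand (GRCm38) and holds Snord49a, Snord49b and Snord65. Its CPM was 10.2, 6.82 and 9.12 in control mice and 49.6, 49.3 and 66.7 in cachectic mice. The lowest cachectic mouse was far above the highest control mouse, and the log2 fold change was 2.66 ± 0.21 (SE; adjusted p = 0.000878). This host was also the third most abundant lncRNA per length. Epb41l4aos, which holds 1 annotated snoRNA, rose from 6.97, 5.27 and 6.18 CPM in control mice to 26.4, 29.9 and 41.0 CPM in cachectic mice. Its groups did not overlap either, with a log2 fold change of 2.40 ± 0.22 (adjusted p = 0.00134).

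Snhg12, a host with 5 annotated snoRNA rows at chr4:132308620-132311020 (plus strand), had 9.88, 6.59 and 8.67 CPM in control mice and 32.8, 32.8 and 61.2 CPM in cachectic mice. The groups were apart, and cachexia replicate 3 stood above the other two cachectic mice. The log2 fold change was 2.33 ± 0.29 (adjusted p = 0.00352). Snhg8, the host of Snora24 at chr3:123507550-123508400 (minus strand), had 13.4, 9.69 and 11.2 CPM in control mice and 29.6, 27.4 and 27.0 CPM in cachectic mice. Here cachexia replicate 3 was the lowest of the cachectic mice, and the log2 fold change was 1.29 ± 0.16 (adjusted p = 0.00352). Zfas1, a host that starts beside Znfx1 and is named after it, went from 9.88, 8.60 and 7.37 CPM to 20.9, 21.9 and 28.7 CPM, a log2 fold change of 1.46 ± 0.19 (adjusted p = 0.00398). The host 1110038B12Rik, which holds Snord52, went from a mean of 6.67 ± 1.11 to 16.5 ± 3.63 CPM (SD, n = 3), a log2 fold change of 1.30 ± 0.23 in the edgeR test (adjusted p = 0.00991, and 0.052 without control replicate 3).

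Gas5, a growth arrest transcript whose RNA can bind the glucocorticoid receptor, holds 10 annotated snoRNA rows and had the most counts of the called hosts. Its CPM was 78.1, 55.7 and 53.3 in control mice and 98.6, 102 and 157 in cachectic mice. The gap between control replicate 1 and cachexia replicate 1 was small beside the spread within groups, and the log2 fold change was 0.93 ± 0.23 (adjusted p = 0.0301). Snhg1 had 16.4, 13.3 and 11.3 CPM in control mice and 24.4, 22.8 and 43.1 CPM in cachectic mice (log2 fold change 1.14 ± 0.27, adjusted p = 0.0276). Snhg20 (1.13 ± 0.24), Snhg17 (0.83 ± 0.22) and Snhg6 (0.58 ± 0.16) rose as well, with non-overlapping groups. With 1 mouse fewer, these 5 smaller rises did not always pass the test. Without control replicate 2, the edgeR adjusted p was 0.103 for Gas5, 0.09 for Snhg1, 0.072 for Snhg20, 0.103 for Snhg17 and 0.106 for Snhg6, and without control replicate 3 it was 0.118, 0.108, 0.086, 0.137 and 0.133. Without cachexia replicate 3 it was 0.055 for Gas5, 0.061 for Snhg17 and 0.082 for Snhg6. Snhg17 also missed the threshold without control replicate 1 (0.069) or cachexia replicate 1 (0.063), and Snhg6 without control replicate 1 (0.091) or cachexia replicate 2 (0.095). Leaving out 1 library left between 5 (without control replicate 3) and 10 of the 11 hosts called, with 6 without control replicate 2 and 8 without cachexia replicate 3.

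The 7 hosts that were not called had overlapping groups. Snhg5, with Snord50a and Snord50b, had 39.6, 40.2 and 40.5 CPM in control mice and 40.4, 38.6 and 46.4 CPM in cachectic mice, a log2 fold change of 0.06 ± 0.12 (adjusted p = 0.766). Its values lay close together in all mice except cachexia replicate 3. Snhg18, the host of Snord123, had a log2 fold change of -0.10 ± 0.26, Snhg14, with 208 annotated snoRNA rows, one of -0.02 ± 0.28, and AI506816 one of -0.31 ± 0.16. The values of Cct6a (-0.02 ± 0.17), 2900076A07Rik (0.03 ± 0.23) and 9330159M07Rik (0.38 ± 0.26) were also within the spread between mice, and Cct6a is listed as a protein-coding chaperonin gene in RefSeq. Of the 254 annotated snoRNA or scaRNA rows inside the 18 hosts, 247 had 0 counts, and the highest sum over the 6 mice was 52 (Snord123). The rises therefore refer to the host transcripts, and levels of the snoRNAs were not analysed here. Cachexia replicate 3, which also had the highest neutrophil and skeletal muscle marker sums, gave the highest value of 14 of the 18 hosts and of 10 of the 11 that rose. The part of these cell types in the rises was not tested.

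**Figure D2:**
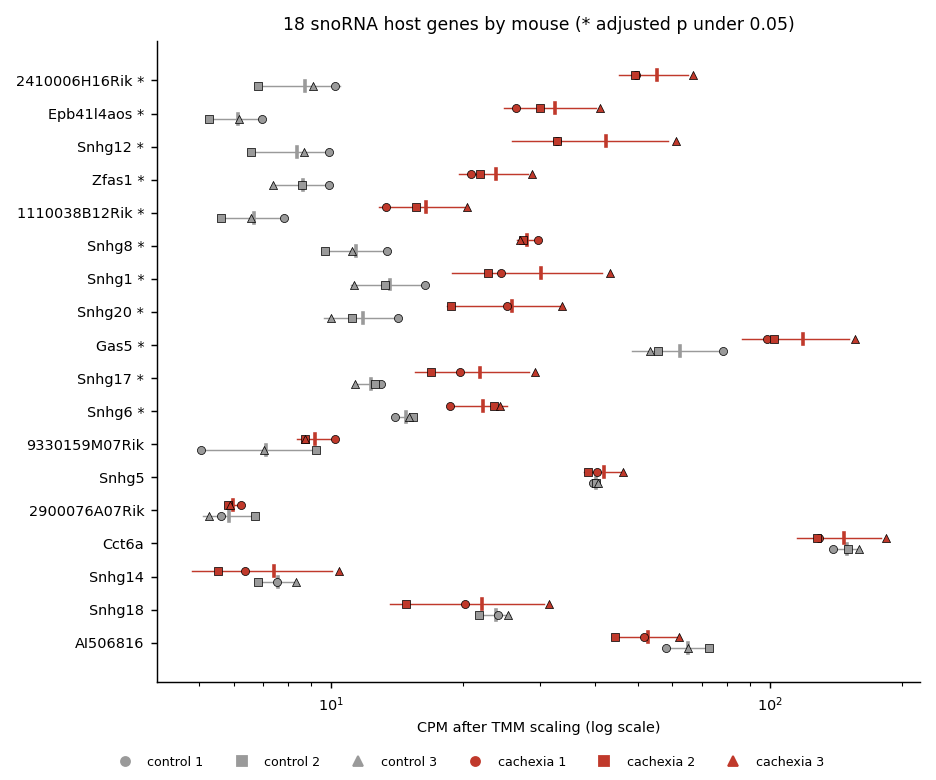
CPM (log axis) of the 18 snoRNA hosts in each of 3 control (grey) and 3 cachectic (red) mice, with 1 symbol per replicate, a vertical bar at the group mean and a horizontal line of 1 SD either side. Hosts are ordered by log2 fold change, and for the 11 marked with an asterisk all red symbols lie to the right of all grey ones.

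Starts of host genes are shown because snoRNA hosts are known to share a run of pyrimidines (C or T) at the start of the transcript with ribosomal protein genes. Windows of 30 bases before and 30 bases from the annotated start on were taken from RefSeq (GRCm38.p6), read on the transcript's strand. Capitals mark a C followed by at least 5 pyrimidines that begins within 10 bases of the start. The first 5 hosts rose and hold such a run. Snhg1 rose and Snhg5 was not called, and neither holds one by this definition. For Gas5 the second of the annotated starts is shown.
2410006H16Rik, chr11:62602847-62602906, plus strand: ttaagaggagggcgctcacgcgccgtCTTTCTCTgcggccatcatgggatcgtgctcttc
Snhg12, chr4:132308648-132308707, plus strand: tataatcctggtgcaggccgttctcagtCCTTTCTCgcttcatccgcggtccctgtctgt
Snhg8, chr3:123508307-123508366, minus strand: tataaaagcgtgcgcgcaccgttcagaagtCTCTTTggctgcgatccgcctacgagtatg
1110038B12Rik, chr17:34952439-34952498, minus strand: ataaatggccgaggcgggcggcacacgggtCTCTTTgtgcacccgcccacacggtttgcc
Gas5, chr1:161035136-161035195, plus strand: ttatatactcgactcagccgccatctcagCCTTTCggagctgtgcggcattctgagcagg
Snhg1, chr19:8723457-8723516, plus strand: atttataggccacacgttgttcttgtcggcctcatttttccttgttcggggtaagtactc
Snhg5, chr9:88522868-88522927, minus strand: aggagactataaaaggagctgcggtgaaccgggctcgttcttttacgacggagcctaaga
The run was found in 8 of the 16 hosts with a RefSeq window (50%), in 20 of 88 other lncRNAs with one (22.7%) and in 5508 of 27025 genes (20.4%). It occurred in 5 of 9 hosts that rose and in 3 of 7 that were not called, so it was present in both sets. The definition was set after the letters had been seen, and the counts are a description.

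Among microRNA hosts the picture was mixed. Of 12 lncRNAs with an annotated microRNA inside their span on the same strand, 3 rose, 2 fell and 7 were not called. The median log2 fold change was 0.00076, and the share called was 41.7%, beside 37.2% of all 164 lncRNAs and 19.7% of genes at the same floor. Mature sequences of some of the microRNAs in these hosts are shown, as listed by RefSeq (GRCm38.p6), with the seed (bases 2 to 8) in capitals. Some hosts carry microRNAs with a shared seed.
miR-22-3p, in Mir22hg: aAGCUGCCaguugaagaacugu
miR-101a-3p, in E130102H24Rik: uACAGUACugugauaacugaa
miR-100-5p, in 3110039I08Rik: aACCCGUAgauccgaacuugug
miR-99a-5p, in Mir99ahg: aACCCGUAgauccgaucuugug
miR-125b-5p, in 3110039I08Rik and Mir99ahg: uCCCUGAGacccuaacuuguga
let-7c-5p, in Mir99ahg: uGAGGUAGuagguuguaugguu
let-7d-5p, in 6720427I07Rik: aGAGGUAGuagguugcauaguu
miR-16-5p, in Dleu2: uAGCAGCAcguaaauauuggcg
miR-15a-5p, in Dleu2: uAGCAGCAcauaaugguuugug
Among the sequences shown, the seed ACCCGUA is shared by miR-100-5p and miR-99a-5p, the seed GAGGUAG by let-7c-5p and let-7d-5p, and the seed AGCAGCA by miR-15a-5p and miR-16-5p. For let-7a-2 in 3110039I08Rik only the 3p sequence was listed, so its 5p seed was not compared. One mature sequence, miR-125b-5p, is encoded in both cluster hosts.

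Mir22hg, the host of miR-22 at chr11:75461539-75466676 (plus strand), had 51.3, 50.6 and 47.4 CPM in control mice and 20.1, 18.5 and 22.2 CPM in cachectic mice. Values within each group lay close together, the groups were far apart, and the log2 fold change was -1.30 ± 0.13 (adjusted p = 0.00162). The host 3110039I08Rik, which RefSeq lists under the name Mir100hg, spans chr9:41327077-41716994 and carries miR-100, let-7a-2 and miR-125b-1. It had 32.2, 40.6 and 28.4 CPM in control mice and 18.0, 13.6 and 17.2 CPM in cachectic mice, without overlap (log2 fold change -1.06 ± 0.18, adjusted p = 0.00982). Mir99ahg, the host of the paralogous cluster miR-99a, let-7c-1 and miR-125b-2 at chr16:77236317-77773427, had 6.32, 10.9 and 12.0 CPM in control mice and 6.47, 6.02 and 8.39 CPM in cachectic mice. Here control replicate 1 lay among the cachectic mice, and the log2 fold change of -0.48 ± 0.29 did not pass the test (adjusted p = 0.28). Whether the changes of both cluster hosts differ from each other was not tested.

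On the higher side, E130102H24Rik, the host of miR-101a, had 3.36, 4.87 and 5.55 CPM in control mice and 13.6, 11.6 and 14.2 CPM in cachectic mice. Every cachectic mouse was above every control mouse, and the log2 fold change was 1.52 ± 0.24 (adjusted p = 0.00765). Smkr-ps rose from a mean of 4.55 ± 0.835 to 22.6 ± 15.6 CPM (SD, n = 3), a log2 fold change of 2.31 ± 0.49 in the edgeR test (adjusted p = 0.0189), with 39.7 CPM in cachexia replicate 3 and 9.33 in cachexia replicate 2. Its log2 fold change was 1.63 without cachexia replicate 3, and its edgeR adjusted p was 0.07 without control replicate 2 and 0.066 without control replicate 3. Snhg20, described above, also carries miR-6516. Dleu2, the host of miR-15a and miR-16-1, had 12.1, 16.3 and 15.8 CPM in control mice and 16.8, 18.6 and 25.0 CPM in cachectic mice. The groups did not overlap, yet its log2 fold change of 0.45 ± 0.20 did not pass the edgeR test (adjusted p = 0.159). The let-7d host 6720427I07Rik (-0.03 ± 0.28), Ftx (0.17 ± 0.34), Zswim6 (-0.14 ± 0.18), Gm6277 (-0.18 ± 0.30) and 2900076A07Rik had overlapping groups. Of the 18 microRNA rows inside the 12 hosts, 14 had 0 counts and none had more than 15, so these values concern the hosts and not the mature microRNAs.

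**Figure D3:**
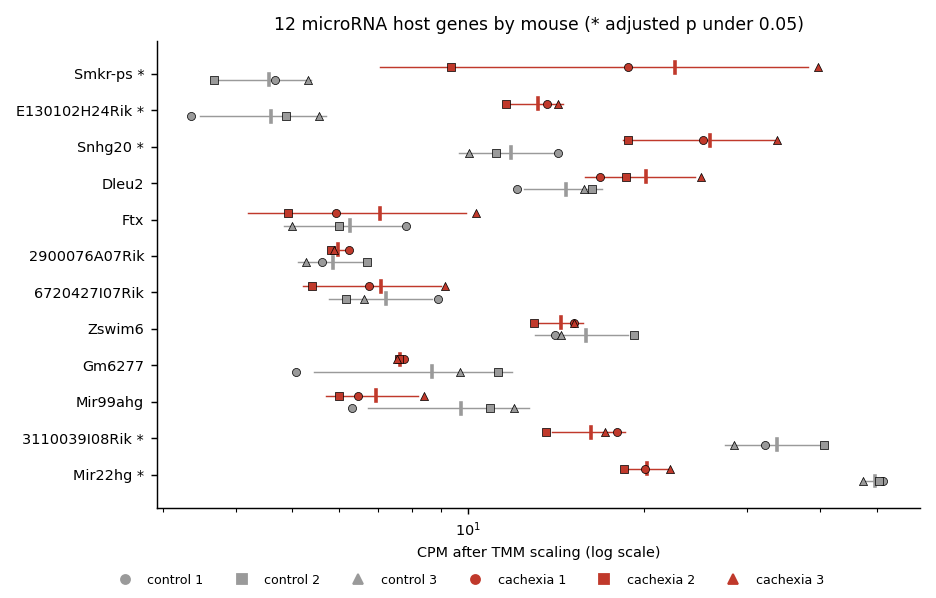
CPM (log axis) of the 12 microRNA hosts in each of 3 control (grey) and 3 cachectic (red) mice, with a vertical bar at the group mean and a horizontal line of 1 SD either side. Mir22hg and 3110039I08Rik, at the bottom, have all red symbols to the left of the grey ones, and the 3 called higher, at the top, have them to the right.

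Nuclear lncRNAs include the most abundant of the set. Of the 8 measured members of the list of nuclear or chromatin lncRNAs, 1 rose and none fell, with a median log2 fold change of 0.14. The share called was 12.5%, beside 19.7% of all genes at the same floor and 37.2% of the 164 lncRNAs, and with 8 members no difference can be read from it. Malat1, a transcript of nuclear speckles, had 699, 940 and 971 CPM in control mice and 553, 843 and 1554 CPM in cachectic mice. The cachectic mice included both the lowest and the highest value, so the groups overlapped, and the log2 fold change was 0.18 ± 0.36 (adjusted p = 0.771). Neat1, the scaffold of paraspeckles, had cachexia replicate 3 as the highest library too, with 1404, 1790 and 1499 CPM in control mice and 1082, 863 and 2147 CPM in cachectic mice. Its log2 fold change was -0.20 ± 0.34 (adjusted p = 0.725). Neat1 and Malat1 together made up 38.9% of all counts of the 164 lncRNAs, and their summed CPM was 3701 in cachexia replicate 3, beside 1635 and 1706 in the other cachectic mice and 2103 to 2730 in control mice. Without cachexia replicate 3, the log2 fold change was -0.31 for Malat1 and -0.68 for Neat1.

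Firre, an X-linked nuclear RNA with a role in chromosome organization, was the 1 called member, with 94.9, 92.0 and 84.1 CPM in control mice and 126, 115 and 165 CPM in cachectic mice. The groups did not overlap, and the log2 fold change was 0.58 ± 0.16 (adjusted p = 0.0455). The adjusted p of Firre lay between 0.067 and 0.168 without control replicate 1, 2 or 3 or cachexia replicate 1 or 3. The transcript 1810026B05Rik, known as Chaserr, had non-overlapping groups but an adjusted p of 0.0796 (log2 fold change 0.52 ± 0.18). It shares 2628 exon bases on the same strand with Chd2, which encodes a chromatin remodeler and rose by 0.71 on the log2 scale (adjusted p = 0.00803), and reads in these bases cannot be told apart. Tug1 (0.11 ± 0.14), 2900097C17Rik, the mouse Norad (0.03 ± 0.16), and 1700020I14Rik, the mouse Cyrano (-0.06 ± 0.17), had overlapping groups at between 92.0 and 223 CPM. Their standard errors were less than those of Malat1 and Neat1. From the same list, Jpx (230 counts), Pvt1 (266), Lncpint (365) and Xist (18) had fewer than 600 counts and were no members.

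Gm26917, a lincRNA model at chr17:39843013-39846341 in sequence like that of ribosomal RNA, had 30.4, 22.3 and 19.5 CPM in control mice and 262, 74.2 and 517 CPM in cachectic mice. All cachectic values were above all control values, and they spread widely around a mean of 284 ± 222 CPM (SD, n = 3). The log2 fold change was 3.56 ± 0.63 (adjusted p = 0.0102, and 0.054 without control replicate 3), and it was 2.81 without cachexia replicate 3. Whether its reads came from ribosomal RNA left in the libraries was not tested. The other ribosomal RNA-like models of the list, Gm42418 and AY036118, had 0 counts. Of the lncRNAs known to encode a small protein, AW112010, an interferon-responsive transcript of immune cells, had a log2 fold change of -0.23 ± 0.16 (adjusted p = 0.34) and 1810058I24Rik one of -0.12 ± 0.16 (adjusted p = 0.628). AW112010 was the 1 member of the list of immune lncRNAs, and no HOX cluster transcript reached 600 counts.

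Outside these classes, several lncRNAs of unknown function had the smallest p-values. On the lower side, 9630013D21Rik (chr4:109651530-109657850, minus strand) had 30.1, 45.7 and 45.9 CPM in control mice and 2.10, 3.19 and 2.88 CPM in cachectic mice. This was the clearest fall of all 164, with groups far apart and a log2 fold change of -3.89 ± 0.25 (adjusted p = 0.000878). B430119L08Rik (chr12:103895900-103898780) had 12.3, 17.3 and 13.5 CPM in control mice and 1.40, 0.123 and 1.05 CPM in cachectic mice (log2 fold change -4.05 ± 0.60, adjusted p = 0.00561). Its cachectic values rest on few counts, and it shares 429 exon bases with Serpina1c on the other strand, a gene that did not pass the filter. AC161607.1, which lies within the span of Zbtb20 on the other strand, had 11.9, 27.4 and 23.9 CPM in control mice and 3.62, 1.78 and 2.49 CPM in cachectic mice (log2 fold change -2.99 ± 0.39, adjusted p = 0.00374). A530053G22Rik (-1.55 ± 0.24), B430219N15Rik (-1.88 ± 0.27) and Gm11816 (-3.16 ± 0.58, and -3.97 without cachexia replicate 1) completed the 8 lower lncRNAs with the smallest p-values, after Mir22hg and 3110039I08Rik.

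On the higher side, Gm28875 (chr12:104925500-104926690, minus strand) had 6.37, 4.87 and 4.53 CPM in control mice and 23.0, 28.7 and 31.1 CPM in cachectic mice. The groups were far apart, with a log2 fold change of 2.39 ± 0.20 (adjusted p = 0.00118). The antisense transcript 4930481A15Rik had 4.87, 4.47 and 3.23 CPM in control mice and 16.3, 24.5 and 20.8 CPM in cachectic mice, a log2 fold change of 2.29 ± 0.24 (adjusted p = 0.00209). For 4930581F22Rik the values were 4.16, 5.22 and 4.02 CPM and 20.6, 17.4 and 26.9 CPM, a log2 fold change of 2.28 ± 0.22 (adjusted p = 0.00164). Gm46404 rose by 2.08 ± 0.27 on the log2 scale, from 2.58 ± 0.475 to 10.9 ± 2.33 CPM (SD, n = 3). In these 4 lncRNAs every cachectic mouse exceeded every control mouse, which was a condition of their choice. Each of the 4 was called with any 1 library left out. The largest fold change of all, chosen here after its value was seen, was that of Gm17116, with 0.552, 0.860 and 0.453 CPM in control mice and 10.1, 7.55 and 45.0 CPM in cachectic mice. Its fold change of 5.06 ± 0.80 on the log2 scale (adjusted p = 0.00705) rests on few counts in control mice and on a high value in cachexia replicate 3, without which it was 3.82.

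**Figure D4:**
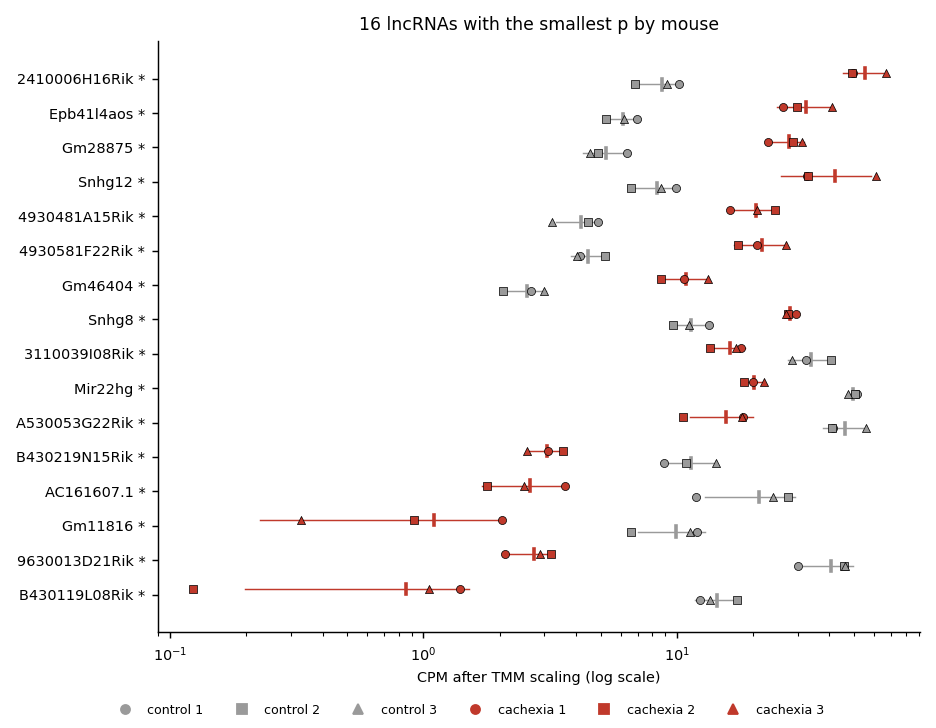
CPM (log axis) of the 8 higher and 8 lower lncRNAs with the smallest p-values in each of 3 control (grey) and 3 cachectic (red) mice, with a vertical bar at the group mean and a horizontal line of 1 SD either side. The groups are apart in all 16 because the choice required it, and the widest gaps are those of 9630013D21Rik and B430119L08Rik at the bottom.

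Since the strand setting of the counting is not stated, a lncRNA that overlaps a coding gene may share reads with it. Of the 164 lncRNAs, 71 overlapped the span of a protein-coding gene and 55 shared exon bases with one, in 8 cases on their own strand. Among the 93 with no such overlap, 27 rose and 6 fell (35.5% called), and among the 71 with overlap 18 rose and 10 fell (39.4%). Without shared exon bases, 30 of 109 rose and 9 fell (35.8%), beside 19.7% called among all genes at the same floor. The rises were thus found with and without an overlapping coding gene, at similar shares.

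Of 75 overlapping pairs in which both genes were tested, 48 had log2 fold changes of the same sign. The share among unrelated pairs of genes was not counted, so these numbers are a description. Of the 164 lncRNAs, 109 had a positive log2 fold change. In 8 pairs both genes were called, and all 8 moved the same way. These included Mir22hg beside Tlcd2, which share 206 exon bases on the same strand and where the coding gene had a log2 fold change of -2.81. Gm28156 lies opposite Aoc3, an amine oxidase abundant on fat cells, and fell with it (-1.22 ± 0.33 for the lncRNA and -1.38 for Aoc3). Their annotated exons share no bases, but their spans overlap, and whether reads of Aoc3 were counted for Gm28156 was not tested. The edgeR adjusted p of Gm28156 was 0.0395 with all mice and between 0.0728 and 0.109 without control replicate 1, 2 or 3 or cachexia replicate 2 or 3. Gm11816 fell with Clvs1 (-2.80), also without shared exon bases. The value of Clvs1 rests on few counts, 154 over the 6 mice, with a mean of 0.35 CPM in cachectic mice. On the higher side 2010016I18Rik rose with Dennd2d (1.89 ± 0.33 and 1.31), 4930581F22Rik with St3gal4, a sialyltransferase (2.28 and 1.24), Gm37305 with Ccnl1, a cyclin linked to splicing (1.18 and 0.90), 4933439C10Rik with Zkscan17 (1.24 and 0.79), and 2010007H06Rik with Colca2 (2.32 and 1.66). The call of 4933439C10Rik was lost without control replicate 2 (adjusted p = 0.0785), control replicate 3 (0.0863) or cachexia replicate 3 (0.0549). The lncRNAs and coding genes in these 6 exon-sharing pairs cannot be told apart where their bases overlap. For the pairs without shared exon bases, whether reads from introns were shared was not tested.

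In other pairs the lncRNA moved and the coding gene did not pass the test. Zfas1 rose while Znfx1, which shares 82 of its exon bases on the other strand, had a log2 fold change of -0.44 (adjusted p = 0.168). For 4930481A15Rik the overlapping gene Drap1 had one of -0.27, for Gas5 the overlapping gene Zbtb37 one of -0.07, and for 5031434O11Rik the gene Setd7 one of -0.09. AC161607.1 fell by 2.99 on the log2 scale, beside -0.89 for Zbtb20 (adjusted p = 0.0549). The reverse also occurred. Psph, the last enzyme of serine synthesis, fell by 1.80 on the log2 scale, beside -0.02 for Cct6a, which overlaps it by 452 exon bases.

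**Figure D5:**
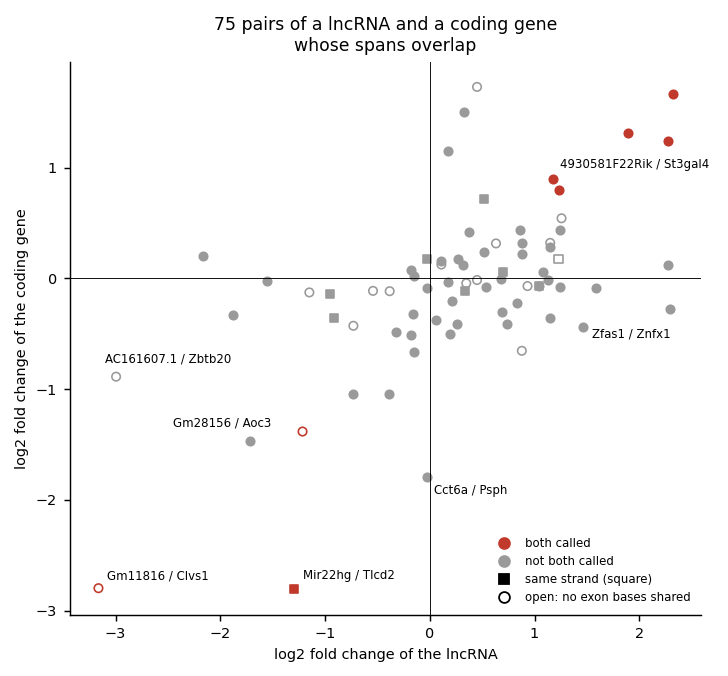
Log2 fold change of the coding gene (vertical axis) against that of the lncRNA (horizontal axis) for the 75 tested pairs whose spans overlap, with red for pairs in which both were called, squares for the same strand and open symbols for pairs without shared exon bases. The 8 red pairs lie in the lower left and upper right quadrants, and grey pairs lie in all 4 quadrants.

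A total of 45 lncRNAs started within 1 kb of the start of a coding gene on the other strand, and 12 of these rose and 3 fell. The share called was 33.3%, beside 37.2% of all 164 lncRNAs and 19.7% of genes at the same floor. Their coding neighbours had a log2 fold change of the same sign in 30 of 45 pairs, and the share among unrelated pairs was not counted. Snhg1 and Slc3a2, the heavy chain of amino acid transporters, start 106 bases apart, and Slc3a2 rose by 0.77 on the log2 scale (adjusted p = 0.0229). Gm4285, which starts 129 bases from Tpt1, had a log2 fold change of 0.81 ± 0.23 (adjusted p = 0.0455, and 0.0774 to 0.139 with any of the 6 libraries left out), beside 0.54 for Tpt1, which did not pass the test (adjusted p = 0.0843). With Gm37305 and 2010007H06Rik, the 3 head-to-head pairs in which both genes were called moved in the same direction. Finally, 10 of the 164 symbols are listed as protein coding in RefSeq, and 1 of them, Gm46430, was called (log2 fold change 0.76 ± 0.21, adjusted p = 0.0418). Its adjusted p lay between 0.0626 and 0.136 without control replicate 1, 2 or 3 or cachexia replicate 1 or 3.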

How the data were processed

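RNA-seq of eWAT from 3 cachectic and 3 control mice, grouped by the sample labels, was analyzed. The authors deposited raw counts per gene without normalization, made by aligning filtered paired-end reads with Hisat2 and counting with featureCounts (1.5.0-p3 in the submitters' processing notes), and deposited FPKM values made from count and gene length. The strand setting is not given in the sources used here. The notes name mm9, but 98.3% of the identifiers found in GENCODE M21 had the GRCm38 coordinates of that annotation, which are printed here. Of the 164 lncRNAs, 160 had the same coordinates there. The authors' deposited table of fold changes and p-values, made with DESeq2 1.16.1, was not used.

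The main test was edgeR's quasi-likelihood test (version 4.0.16, under R 4.3.3) on the counts of the 16003 genes that passed filterByExpr, with TMM normalization, Benjamini-Hochberg adjustment over these, a threshold of 0.05 and no covariate. SEs were derived as |log2 fold change|/√F. An exact two-sided permutation test of 3 against 3 mice cannot go below 0.1, so none is printed. FPKM served for comparing levels between genes. The total count and the biological coefficient of variation of 0.264 set the precision. No 2 of the 6 libraries were near-identical.

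Span overlaps used the gene coordinates deposited with the counts, and shared exon bases used GENCODE M21. Sequences came from RefSeq (GRCm38.p6), where 104 of the 164 lncRNAs had a promoter window. The lncRNAs named are the 8 with the smallest p in each direction among those called with non-overlapping groups, the 5 with the highest mean FPKM, members of the classes (snoRNA and microRNA hosts, nuclear or chromatin, HOX cluster, immune, small protein and ribosomal RNA-like), and those beside the count floor. Others, such as the lncRNAs in overlapping pairs, were named after their values were seen. The lncRNAs, classes and marker lists were chosen with earlier results of these data known. Scripts were tested on simulated counts. Other settings, changed 1 at a time, were RLE factors, plain library totals, normalization on coding genes, other count filters, a replicate block, each library left out, limma-voom (limma 3.58.1), DESeq2 1.42.0, limma on log2(FPKM + 1) and log2(FPKM + 0.1), and other membership rules.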

Additional observations from a re-analysis of the deposited data

How the results depend on the processing

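Counts are given as higher and lower lncRNAs, beside 45 and 16 as reported. No called lncRNA changed direction in any of the 16 other fits, and 24 of the 61 were called in all 16. RLE factors gave 45 and 16, library totals 44 and 14, normalization on coding genes 46 and 15, no filter 40 and 14, at least 10 counts in every sample 43 and 14 of 159 tested, DESeq2 54 and 20, limma-voom 40 and 17, and limma on log2 FPKM 39 and 15 (pseudocount 1) or 41 and 15 (0.1). Leaving out 1 library gave 18 to 35 higher and 9 to 14 lower lncRNAs. The lowest counts came without control replicate 3 and the next without control replicate 2 (25 and 9). The share called was 16.5% to 29.3% of the lncRNAs, beside 5.02% to 14.2% of all genes tested. Between 5 and 10 snoRNA hosts were higher with 1 library left out, beside 11. Fewer mice were tested there. A floor of 300 counts gave 63 and 24 of 306 tested, and one of 1200 gave 30 and 8 of 92. Without overlap with a coding gene there were 27 and 6 of 93 lncRNAs, and without shared exon bases, a setting added after seeing the data, 30 and 9 of 109, both from fewer lncRNAs tested. Leaving out ribosomal RNA-like models gave 44 and 16, and leaving out symbols that RefSeq lists as coding, also added later, 44 and 16.

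The labels number the samples within each group and do not say that a number marks a shared batch or day. Deviations of same-numbered mice correlated by -0.003, -0.011 and 0.008, so no common deviation over the genes was seen. These values cannot show a batch or day that acted on some genes only, and whether the numbers pair the mice was not tested. With a replicate block, 29 lncRNAs were higher and 12 lower (25% called, beside 11.8% of all genes tested). Of the snoRNA hosts, 7 were higher with the block. The cause of the lower count was not tested.

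Of 52 lncRNAs named by rule, 28 were called, and 19 of these kept call and direction in every fit they entered. Signs turned only among lncRNAs that were not called. With library totals the log2 fold change was 0.03 for Cct6a, 0.026 for Snhg14 and 0.006 for 6720427I07Rik, and with normalization on coding genes it was 0.001 for Cct6a and 0.002 for Snhg14. With 1 library left out, the range was -0.313 to 0.461 for Malat1, -0.682 to 0.049 for Neat1, -0.157 to 0.539 for Gm10076, -0.205 to 0.372 for Ftx, -0.068 to 0.15 for 2900097C17Rik, -0.177 to 0.058 for 1700020I14Rik, -0.044 to 0.137 for 2900076A07Rik, -0.211 to 0.069 for Cct6a, -0.342 to 0.152 for Snhg14, -0.435 to 0.124 for Snhg18, -0.017 to 0.117 for Snhg5, -0.246 to 0.144 for 6720427I07Rik, -0.454 to 0.05 for Gm6277 and -0.221 to 0.017 for Zswim6. For lncRNAs near the floor of 600 counts, the depth limits what could be detected.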

Other observations

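LncRNAs just under the count floor were examined in the same way. Of 144 lncRNA rows with at least 300 and fewer than 600 counts, 142 were tested, and 18 were higher and 8 lower in cachectic mice (edgeR adjusted p under 0.05). This was 18.3%, beside 14% of all genes tested in that range of counts and 17.6% of all genes tested. The 3 with the smallest p-values, named after their values were seen, all rose. Gm39822 went from 0.667 ± 0.122 to 7.78 ± 2.59 CPM (SD, n = 3), 4732463B04Rik from 0.757 ± 0.342 to 6.89 ± 1.27 CPM and Gm10384 from 0.793 ± 0.202 to 5.80 ± 1.76 CPM. Among those that fell, Gm11266 went from 7.44 ± 1.26 to 1.93 ± 0.477 CPM and Gm32200 from 6.33 ± 2.03 to 0.741 ± 0.377 CPM. Control values of the first 3 rest on few counts.

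Noncoding biotypes outside the membership rule were also counted at the same floor of 600. Of 12 transcripts with the biotype bidirectional_promoter_lncRNA, 5 rose and none fell (41.7% called), and of 15 with the biotype TEC, 3 rose and 1 fell (26.7%). Among all genes at that floor 19.7% were called, and these sets are small. Lncpint, a transcript named as nuclear in the list of classes, had a log2 fold change of 1.54 ± 0.53 (edgeR adjusted p = 0.0801) from 365 counts. Gm14005, a lncRNA of myeloid cells, had one of 0.54 ± 0.40 (adjusted p = 0.377) from 295 counts. Mirt2, from the immune list, was called higher (2.16 ± 0.54, adjusted p = 0.0316), but from only 46 counts. Spaar, from the small protein list and of the biotype protein_coding, was also called higher (0.96 ± 0.16, adjusted p = 0.00832). The other tested transcripts of the class lists outside the members did not pass the test.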
